A study of Mus musculus with 12 samples.

Results

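Oxidative phosphorylation subunits are the proteins that build the 4 complexes of the mitochondrial respiratory chain and the ATP synthase, called complex V. Their genes were taken from the table by symbol: Nduf genes for complex I, Sdh genes for complex II, Uqcr genes for complex III, Cox4 to Cox8 genes for complex IV and Atp5 genes for complex V. The rule found 81 of the 16942 genes in the table, with 37 in complex I, 4 in complex II, 8 in complex III, 15 in complex IV and 17 in complex V. The rule used names and no measured values. Of the 81 genes, 77 had enough counts to be tested. The 4 that did not were Ndufa4l2, Cox6b2, Cox4i2 and Cox6a2.

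Electrons from NADH enter the chain at complex I and electrons from succinate at complex II, and both pass through coenzyme Q to complex III, then through cytochrome c to complex IV, which reduces oxygen. Complexes I, III and IV pump protons across the inner mitochondrial membrane, and complex V uses their return to make ATP. Most subunits are encoded in the nucleus and a few in mitochondrial DNA. In the intestine the absorptive cells of the villus spend much of this ATP on sodium pumping and nutrient uptake.

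The libraries were made from small intestine RNA of outbred ICR mice, and the labels sort the 12 of them into 4 groups of 3. Busulfan, a DNA-alkylating agent, is toxic to dividing cells. AOS was given as 0 or 10, and the labels do not spell out the name, unit or route. The groups were AOS0 (neither treatment), AOS10 (AOS at 10, no busulfan), B+A0 (busulfan, AOS at 0) and B+A10 (busulfan, AOS at 10). Neither age nor time after treatment is stated in the labels. The sample titles share a prefix of a letter and a digit whose meaning is not given here. Nothing in the labels ties the 3 libraries of a group to separate animals. The p-values therefore describe the spread between these samples only, and that spread may be technical.

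Libraries held 13560246 to 16818237 counts. All 10 enterocyte markers, Vil1, Apoa1 and Fabp1 among them, were detected, with a summed level of 10700 to 22000 CPM (counts scaled to library size) over the 12 libraries. The 6 smooth muscle markers, Myh11 and Acta2 among them, summed to 0.0614 to 3.7 CPM, so the defining genes of the muscle layers were near 0 in tissue labelled intestine. B+A10 replicate 3 stood apart from the other libraries of its group. On the first principal component of the 77 subunit genes (41.2% of their variance) it lay at -1.13, while B+A10 replicates 1 and 2 lay at 1.09 and 0.641. The sign of this component was set by the GC content of the transcripts. Spearman's rho between GC content and the weights of the genes on it was 0.63. The medians of the comparisons that use B+A10 replicate 3 are given with and without that library.

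Transcription factors known from textbooks to bind promoters of many of these nuclear genes are NRF1, GABP (an ETS factor) and YY1. Their core letters were searched on both strands in the RefSeq promoter table (GRCm38.p6, 250 bases before to 50 bases after each start), which held 66 of the 81 genes. The NRF1 core GCGCATGCG stood in 8 of the 66 (12.1%), against 3.29% of the 13328 genes of the table that had a promoter. Its shorter form GCGCATG, which lies inside the longer one, stood in 19.7% against 6.63%. The ETS core CCGGAAG stood in 24.2% against 16.4%, the YY1 core AAGATGGC in 15.2% against 4.31%, and the Sp1 core GGGCGG in 40.9% against 60.6%. A match describes the letters in the window and is not a measured site.

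The 4 sequences shown carry each kind of match and belong to Ndufa8 and Uqcrh, whose values are described further on, to Cox6a1, the highest gene of complex IV, and to Atp5j. Each is the 250 bases before the start, written 5′ to 3′ on the gene's strand, which is the minus strand for all 4, with matches to the NRF1, ETS and YY1 cores in capitals. They lie at chr2:36049339-36049588 (Ndufa8), chr5:115348959-115349208 (Cox6a1), chr4:116075071-116075320 (Uqcrh) and chr16:84834977-84835226 (Atp5j, the more downstream of its starts in the table).
Ndufa8: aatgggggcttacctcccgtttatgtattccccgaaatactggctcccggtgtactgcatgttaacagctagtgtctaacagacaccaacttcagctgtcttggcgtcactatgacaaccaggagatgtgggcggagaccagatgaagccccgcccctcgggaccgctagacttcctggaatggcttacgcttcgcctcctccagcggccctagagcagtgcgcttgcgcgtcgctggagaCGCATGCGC
Cox6a1: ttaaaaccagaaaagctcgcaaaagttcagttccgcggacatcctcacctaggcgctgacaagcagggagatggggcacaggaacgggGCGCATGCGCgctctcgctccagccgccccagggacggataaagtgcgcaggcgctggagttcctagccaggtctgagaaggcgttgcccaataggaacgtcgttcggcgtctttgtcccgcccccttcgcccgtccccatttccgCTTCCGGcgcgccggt
Uqcrh: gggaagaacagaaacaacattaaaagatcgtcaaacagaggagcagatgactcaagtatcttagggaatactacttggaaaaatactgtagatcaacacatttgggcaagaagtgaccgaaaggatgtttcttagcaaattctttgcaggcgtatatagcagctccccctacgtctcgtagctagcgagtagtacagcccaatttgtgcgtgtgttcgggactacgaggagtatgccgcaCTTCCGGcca
Atp5j: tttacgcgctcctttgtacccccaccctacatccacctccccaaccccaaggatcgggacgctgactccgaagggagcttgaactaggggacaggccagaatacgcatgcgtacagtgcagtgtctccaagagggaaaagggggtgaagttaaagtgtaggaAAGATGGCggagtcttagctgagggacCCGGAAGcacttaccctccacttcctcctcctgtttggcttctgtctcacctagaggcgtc

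In Ndufa8 the NRF1 core ends at the base before the start. Cox6a1 holds overlapping matches of the NRF1 core on both strands and an ETS core near the start, as in 6 of the 66 genes that held both the short NRF1 core and the ETS core. Uqcrh holds an ETS core only. Atp5j holds a YY1 core and an ETS core and was the only gene of the 66 with that pair, and its exons overlap those of Gabpa, which encodes a subunit of GABP, on the other strand. In all, 31 of the 66 genes held the short NRF1, the ETS or the YY1 core. For this count and for the pairs of cores no share over the genes of the table was computed, so they have no background.

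The subunit genes were among the most abundant transcripts of the tissue. Together they took 2.3% to 2.49% of all counts in each library. Levels are given as FPKM, which divide counts by gene length and library size, so levels compared between genes depend on the lengths used. By this measure 69 of the 81 genes (85.2%) had a mean of at least 100 FPKM over the 12 libraries, against 5.89% of all genes in the table. The median of the 77 tested genes was 288.8 FPKM, against 10.41 FPKM for all 12329 tested genes. The median length implied by counts and FPKM was 552 bases for these 77 and 2678 for all tested genes. The comparisons with all genes in FPKM depend on these lengths.

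**Figure D1:**
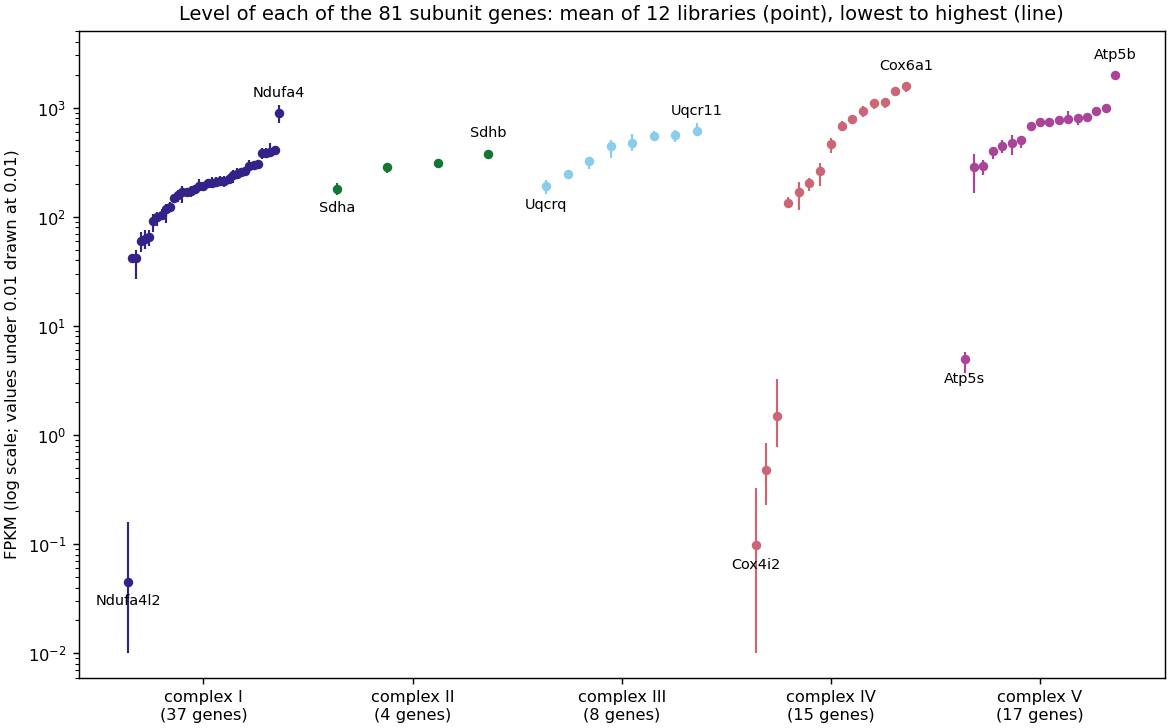
Level of each of the 81 subunit genes by complex, in FPKM on a log axis, with the mean over 12 libraries as a point and the lowest to highest library as a line. Complex I genes are lower as a set (median 196.3 FPKM of tested genes) than those of complexes IV and V (731.3 and 732.8 FPKM), and 5 genes lie under 10 FPKM.

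Levels differed by complex. The median over tested genes was 196.3 FPKM for complex I, 298.8 for complex II, 459.8 for complex III, 731.3 for complex IV and 732.8 for complex V. This order of medians describes these libraries and depends on the gene lengths the authors used. For Ndufa11, a membrane-arm subunit of complex I, counts and FPKM imply a length of 2532 bases, while its longest coding transcript in GENCODE has 918. Its 41.49 FPKM was the lowest among the tested genes of complex I, although its 1449 to 1933 counts per library were close to the 1695 to 2513 of Ndufs8, at 190.1 FPKM.

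Within complex I, Ndufa4 was highest at 894.2 FPKM, and its lowest library (727.42) lay above the highest library of the next gene, Ndufb9 (441.73). Ndufa4 was named as a complex I protein and was later found to be a subunit of complex IV, whose tested genes had a median of 731.3 FPKM. Among the core subunits that carry flavin or iron-sulfur clusters, Ndufs1 stood at 62.54 FPKM, Ndufv1 at 147.9 FPKM and Ndufs7 at 223.1 FPKM. Below Ndufb9 the levels formed a nearly continuous series. Of the 36 neighbouring pairs in the order, 32 overlapped across libraries and only 4 did not.

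In complex II, the link between the tricarboxylic acid cycle and the chain, the order was Sdhb (iron-sulfur protein, 377.6 FPKM), Sdhc and Sdhd (membrane anchors, 313.7 and 284 FPKM) and Sdha (flavoprotein, 179.4 FPKM). Only the anchors overlapped with each other. In complex III the small subunit Uqcr11 (608.4 FPKM), the core protein Uqcrc1 (560.2 FPKM) and the small subunit Uqcr10 (545.5 FPKM) overlapped as neighbours. Uqcrfs1, the Rieske iron-sulfur protein that passes electrons to cytochrome c1, stood at 248.7 FPKM and Uqcrq at 191.4 FPKM. This order depends on the lengths used: Uqcrq gave 3623 to 5104 counts per library at an implied 1391 bases. Uqcr11 gave 2509 to 3718 counts at an implied 308 bases.

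In complex V, Atp5b, the catalytic beta subunit, had the highest level of all 81 genes (1984 FPKM), ahead of Atp5a1, the alpha subunit (989.9 FPKM). Alpha and beta are present in several copies in each enzyme, and gamma (Atp5c1, 732.8 FPKM), delta (Atp5d, 800.2 FPKM) and epsilon (Atp5e, 284.3 FPKM) in a single copy. The c subunit, which forms the rotating ring, has 3 genes with the same mature product, at 790.5 (Atp5g1), 766.1 (Atp5g3) and 499.7 FPKM (Atp5g2). Summed, these 3 genes gave 1998 ± 35.7 FPKM in AOS0, 2069 ± 89.5 in AOS10, 2145 ± 140 in B+A0 and 2013 ± 120 in B+A10 (SD, n = 3). Atp5s, a coupling factor rather than a structural subunit, was the exception at 4.965 FPKM.

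Several complex IV subunits have alternative genes used in different tissues, and these libraries used 1 form of most. Cox4i1 stood at 1097 FPKM and its lung-rich form Cox4i2 at 0.0975, Cox6a1 at 1559 and its muscle form Cox6a2 at 0.4825, Cox6b1 at 939.4 and its testis form Cox6b2 at 1.494. Ndufa4l2, the hypoxia-induced relative of Ndufa4, stood at 0.045 FPKM. Cox4i2 and Ndufa4l2 had at most 3 and 2 counts in any library. Their values cannot be compared between groups at this depth.

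**Figure D2:**
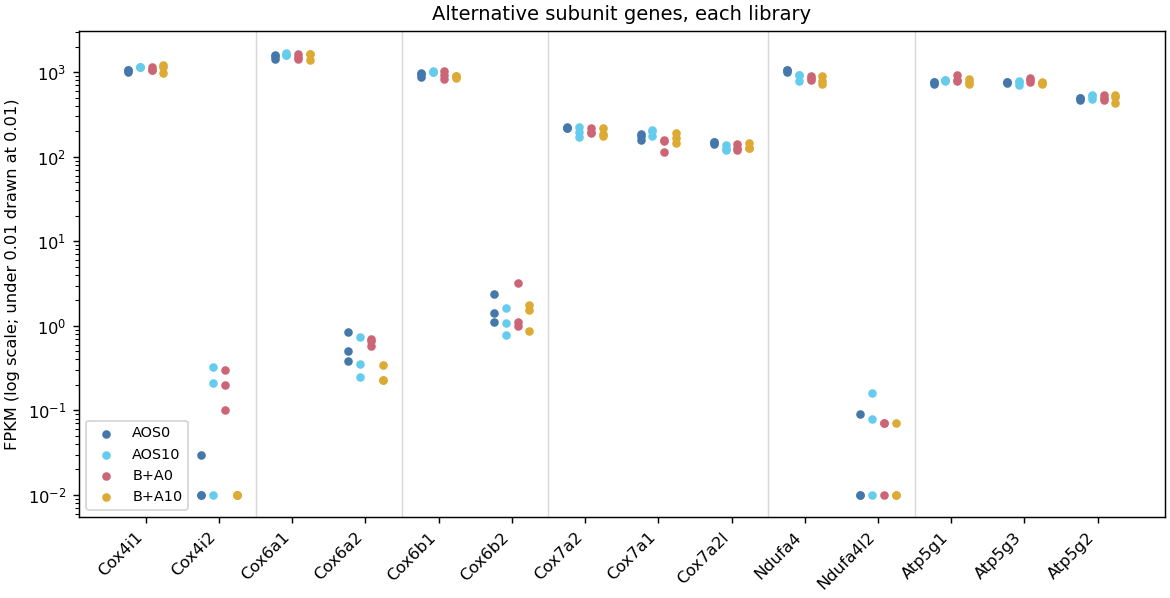
FPKM of alternative subunit genes in each of the 12 libraries on a log axis, coloured by group, with related genes side by side. Cox4i2, Cox6a2, Cox6b2 and Ndufa4l2 lie under 3.5 FPKM in all libraries, while Cox7a1 (114.73 to 209.2 FPKM) overlaps the range of Cox7a2 (172.47 to 225.47 FPKM) and reaches below it.

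Cox7a differed from this pattern. Cox7a1 (gene ID 12865, GRCm38 chromosome 7, 30184171 to 30186030) is known as the form of heart and skeletal muscle, and Cox7a2 (gene ID 12866, chromosome 9, 79755241 to 79771422) as the form of most other tissues. Cox7a1 stood at 175.53, 186.52 and 158.46 FPKM in AOS0, at 174.86, 202.64 and 209.2 in AOS10, at 158.06, 114.73 and 154.9 in B+A0, and at 165.22, 192.13 and 145.48 in B+A10. Cox7a2 ranged from 172.47 to 225.47 FPKM over the same libraries. Cox7a1 thus made up 44 ± 2.5% of the sum of both in AOS0, 49.8 ± 1.18% in AOS10, 41.3 ± 3.96% in B+A0 and 46.5 ± 5.93% in B+A10 (SD, n = 3). The share depends on the lengths of 238 bases for Cox7a1 and 625 for Cox7a2 that the values imply. Their longest coding transcripts in GENCODE have 485 and 659 bases, and a longer length for Cox7a1 would lower its share. In CPM, which are not divided by gene length, the AOS0 means were 40.3 for Cox7a1 and 134.9 for Cox7a2.

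Markers of striated muscle were near 0 in the same libraries. Of the 7 fixed markers 5 were in the table, with mean levels of 2.25 FPKM for Acta1 (skeletal actin), 0.296 for Tnnt2, 0.045 for Ckm (muscle creatine kinase), 0.005 for Mb (myoglobin) and 0.000833 for Myh7. Their summed level was 1.96 to 4.88 CPM in all libraries, and the muscle form Cox6a2 was at 0.4825 FPKM. Cox7a2l, a relative of Cox7a2 that acts in joining complexes III and IV, stood at 134.7 FPKM.

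The subunit genes varied little between libraries. Their median coefficient of variation over all 12 libraries was 6.47%, against 9.31% for the 929 other tested genes at or above 100 FPKM and 13.5% for all tested genes. The highest library exceeded the lowest by less than 1.5-fold in 69 of the 77 tested genes. Atp5a1 varied least, from 954.29 to 1029.27 FPKM (1.08-fold).

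Atp5e, Ndufs4 and Cox7a1 varied most, by 2.28, 1.86 and 1.82-fold between the highest and lowest library. Atp5e (gene ID 67126, chromosome 2, 174461075 to 174464101) gave 84.1, 89.2 and 58.7 CPM in AOS0, 93.2, 82.3 and 97.6 in AOS10, 86.8, 46.1 and 109 in B+A0, and 89.6, 87.9 and 53.8 in B+A10. In 3 of the 4 groups 1 library was much lower than the others, and the groups overlapped throughout. Ndufs4, an accessory subunit of complex I whose loss causes a Leigh-like disease, gave 60.6, 54.4 and 69 CPM in AOS0 and 63.4, 66.2 and 68.4 in AOS10. In B+A0 it gave 66.6, 52.7 and 45.7 CPM and in B+A10 38, 51.8 and 68.6, so the busulfan groups spread more widely than the others and overlapped with them.

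Each comparison between groups was tested over all 12329 genes with edgeR's quasi-likelihood test and Benjamini-Hochberg adjustment at 0.05. In none of the 6 comparisons did a subunit gene pass. The median standard error of a member's log2 fold change was 0.09 (0.12 for the interaction), and in the 5 pairwise comparisons all 77 95% intervals lay within 2-fold in either direction. The bound farthest from 0 was a 1.77-fold difference, for Atp5e between B+A10 and AOS10.

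**Figure D3:**
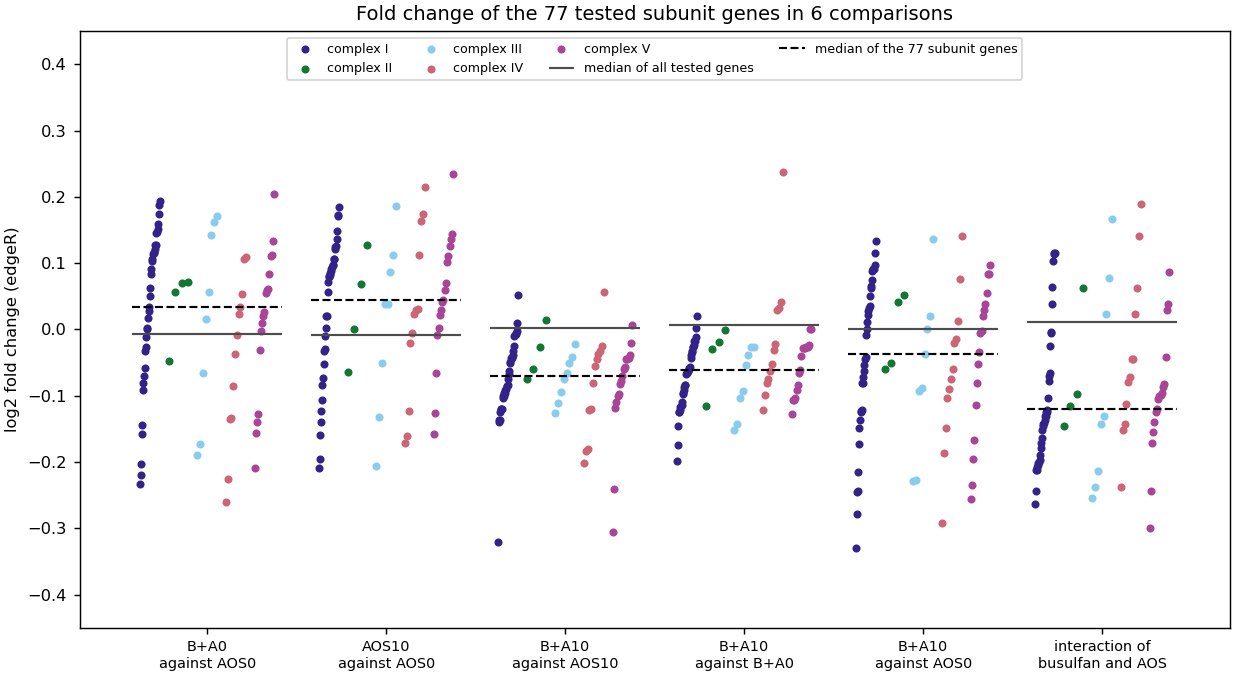
Log2 fold change of the 77 tested subunit genes in 6 comparisons, coloured by complex, with the median of these genes (dashed) and of all tested genes (solid). The genes lie within -0.33 and 0.24 in every comparison, and 72 and 69 of the 77 lie under 0 in the comparisons of B+A10 with AOS10 and with B+A0.

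Busulfan alone was read from B+A0 against AOS0. No subunit gene passed, where 3.64% of all tested genes did (210 higher and 239 lower). Of the 77 genes, 48 lay above 0 and 29 below, with a median log2 fold change of 0.03 against -0.01 for all tested genes. The sign of this median turned with the scaling: it was -0.006 with library totals, -0.003 with upper quartile scaling and -0.014 by limma on log2(FPKM + 1). At an unadjusted p under 0.05 there were 5 of the 77 (6.49%), 3 higher and 2 lower, against 22.1% of all genes. The groups did not overlap in 18 genes (23.4%), 10 higher and 8 lower, against 29% of all genes.

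Ndufa8, an accessory subunit of complex I on the intermembrane space side, had the smallest adjusted p. It gave 120.6, 119.6 and 123.3 CPM in AOS0 and 135.8, 133.7 and 146.4 CPM in B+A0. All B+A0 libraries were thus above all AOS0 libraries, with a log2 fold change of 0.19 (SE 0.07) and an adjusted p of 0.115 by edgeR. DESeq2 called it (adjusted p = 0.0421) and no other member, where it called 8.31% of all genes. With offsets that remove a trend with GC content, edgeR called Ndufa8 as well (adjusted p = 0.0468), where it called 11.2% of all genes.

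Members with small p in the other complexes lay in either direction. Atp5g1 of the c ring differed by a log2 fold change of 0.20 ± 0.09 (SE) at an edgeR adjusted p = 0.214, with 461.5, 504.7 and 517.2 CPM in AOS0 and 542, 533 and 634.6 in B+A0. Cox7b, a small subunit of complex IV (gene ID 66142, chromosome X, 106015700 to 106022450), was at 249.2, 247.4 and 270.5 CPM in AOS0 and at 210.2, 212.7 and 217.2 in B+A0. Its groups did not overlap, and its log2 fold change was -0.26 (SE 0.12, adjusted p = 0.24, edgeR).

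Complex III held both directions. Uqcr10, a small subunit, differed by a log2 fold change of 0.14 (SE 0.07) and Uqcrh, the hinge protein that helps cytochrome c bind, one of -0.19 (SE 0.10), with adjusted p of 0.281 and 0.291 by edgeR. In complex II, Sdhb, Sdhc and Sdhd lay at 0.06 to 0.07 and Sdha at -0.05, each within its standard error of about 0.08 to 0.09. Markers of T and NK cells moved in this comparison: all 8 lay below 0 and 6 were called lower. Their summed level was 154 to 266 CPM in AOS0 and 35.7 to 99.3 CPM in B+A0. The enterocyte markers summed to 14900 to 17300 CPM in AOS0 and 10700 to 20100 in B+A0, with 0 of 10 called. By sign, 9 of the 10 lay below 0 (median -0.35), as did 6 of 7 goblet cell markers (-0.21, none called). Of 7 enteroendocrine markers 6 lay below 0 (median -0.16), and 1 was called lower. Paneth cell markers (6 genes) summed to 3280 to 4990 CPM in AOS0 and 5790 to 7230 in B+A0, and tuft cell markers (4 genes) to 18.3 to 19 and 10.2 to 12.6, with none called in either list. The part of these cell types in the subunit values was not tested, and in bulk tissue fewer cells of a type and less RNA per cell cannot be told apart.

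AOS without busulfan was read from AOS10 against AOS0. No subunit gene passed, and 0% of all tested genes did. The median log2 fold change was 0.04 against -0.01 for all genes, with 52 of the 77 above 0. At an unadjusted p under 0.05 there were 2 of 77 (Ndufb9 higher and Ndufa4 lower), against 6.23% of all genes, and DESeq2 called none of the 77, against 0.511% of all genes. Groups did not overlap in 26 genes (33.8%), 20 of them higher and 6 lower, against 20.7% of all genes.

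Of those named by p, Cox4i1 (0.17, SE 0.09), Uqcrc1 (0.19, SE 0.10), Atp5b (0.14, SE 0.07) and Sdhb (0.13, SE 0.08) were all higher with no overlap, and their adjusted p lay between 0.802 and 0.805 (edgeR). Cox7a2l, with the smallest p in complex IV, was lower (-0.16, SE 0.08, edgeR adjusted p = 0.802), and its groups overlapped. Sdhb gave 342.9, 331.7 and 350.5 CPM in AOS0 and 368.6, 374.5 and 376.4 CPM in AOS10. Uqcrh gave 217.6, 209.6 and 236.5 CPM in AOS0 and 166.3, 199.9 and 209.4 CPM in AOS10. All 3 AOS10 libraries were thus lower, the nearest by less than 1 CPM, with a log2 fold change of -0.21 ± 0.10 (SE) at an edgeR adjusted p = 0.802. Enterocyte markers summed to 17900 to 20500 CPM in AOS10, above the 14900 to 17300 of AOS0. All 7 enteroendocrine markers lay above 0 (median 0.53) and all 8 T and NK cell markers below (median -0.49), none called, and the part of these lists in the subunit values was not tested.

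Ndufa4 (gene ID 17992, chromosome 6, 11900372 to 11907450) was lower in each of the other groups than in AOS0. It gave 367.1, 356.5 and 387.1 CPM in AOS0, 282.3, 338.6 and 339.9 in AOS10, 308.8, 306.5 and 329.5 in B+A0, and 268.3, 296.2 and 319.8 in B+A10. No library of the other 3 groups reached the lowest AOS0 library. The log2 fold changes against AOS0 were -0.21, -0.23 and -0.33 (SE 0.09 each), with adjusted p of 0.798, 0.161 and 0.113 by edgeR. These comparisons share the 3 AOS0 libraries and are not separate evidence. Among members, DESeq2 called it for B+A10 against AOS0 (adjusted p = 0.0346) and for neither of the others.

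**Figure D4:**
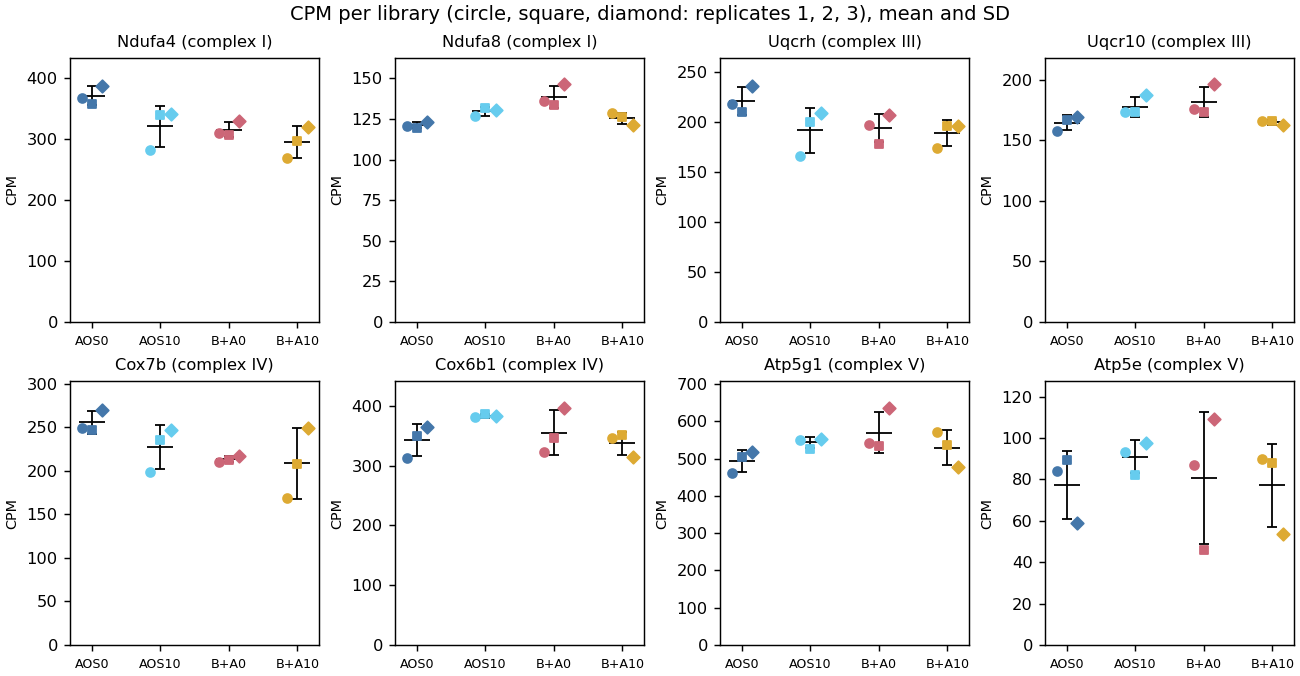
CPM of 8 subunit genes in each library, with replicates 1, 2 and 3 as circle, square and diamond and the mean and SD of each group in black. Ndufa4 is highest in AOS0 (356.5 to 387.1 CPM), Ndufa8 is higher in B+A0 (133.7 to 146.4 CPM) than in AOS0 (119.6 to 123.3 CPM), and Atp5e spreads widely within groups.

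Busulfan where AOS was given was read from B+A10 against AOS10. No subunit gene passed, against 0.162% of all genes, none had an unadjusted p under 0.05, against 10.2% of all genes, and DESeq2 called none, against 1.12%. By sign alone, 72 of the 77 genes lay below 0 (93.5%), against 49.1% of all genes, with a median of -0.07 against 0.00 for all. Complexes I, III, IV and V had medians of -0.08, -0.07, -0.07 and -0.07 and complex II one of -0.04. The groups did not overlap in 8 genes (10.4%), all lower, against 14.9% of all genes.

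Cox6b1, which lies on the intermembrane space side of complex IV, showed the smallest p. It gave 380.3, 386 and 382.7 CPM in AOS10 and 346, 350.4 and 314.8 in B+A10. The groups did not overlap, with a log2 fold change of -0.18 (SE 0.09) and an adjusted p of 0.528 by edgeR. Uqcr10 gave 173, 172.9 and 187.2 CPM in AOS10 and 165.9, 165.4 and 162.4 in B+A10, again with no overlap (log2 fold change -0.11 with SE 0.07 and edgeR adjusted p = 0.663). Ndufs4 lay farthest from 0 (-0.32, SE 0.18, adjusted p = 0.605) but overlapped.

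Averaged over the 77 genes, each library's mean log2 CPM relative to the AOS0 mean was -0.01, 0.01 and 0.09 in AOS10 and -0.07, -0.01 and -0.06 in B+A10, with a pooled SD within groups of 0.05. B+A10 replicate 2 and AOS10 replicate 1 thus lay at the same level to 2 decimals, and the other libraries on either side of them. Without B+A10 replicate 3, 59 of 78 tested genes lay below 0, with a median of -0.05. Markers of several cell types lay to 1 side of 0 in this comparison, with none called: all 7 goblet cell markers (median -0.26), all 7 enteroendocrine markers (-0.36) and all 4 tuft cell markers (-0.92) below, and all 6 Paneth cell markers (0.34) above. Of the 10 enterocyte markers 9 lay below 0 (median -0.135, none called). The part of these lists in the subunit values was not tested.

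What AOS changed after busulfan was read from B+A10 against B+A0, which shares the B+A10 libraries with the one before. No subunit gene passed and 0% of all genes did. None of the 77 had an unadjusted p under 0.05, against 9.81% of all genes, and DESeq2 called none, against 0.665%. The median was -0.06 against 0.01 for all genes, with 69 of 77 below 0 (89.6%, against 48.2% of all genes). Without B+A10 replicate 3, 57 of 78 lay below 0, with a median of -0.07. In the same comparison all 8 T and NK cell markers (median 1.21), all 10 enterocyte markers (0.345) and all 7 enteroendocrine markers (0.33) lay above 0 and all 6 Paneth cell markers below (-0.25), with none called. Their part in the subunit values was not tested. In 7 genes (9.09%), all lower, the groups did not overlap, against 10.2% of all genes.

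This comparison shares the B+A0 libraries with B+A0 against AOS0, so results for a gene in both are not separate evidence. Ndufa8 had the smallest p here as well. Its B+A10 libraries at 128.4, 126.4 and 121.5 CPM lay below all B+A0 libraries (133.7 to 146.4 CPM), with a log2 fold change of -0.14 (SE 0.07) and an adjusted p of 0.509 by edgeR. All 8 genes of complex III lay below 0, among them Uqcr11 at -0.15 (SE 0.09, adjusted p = 0.613). Cox7a1 lay in the other direction, at 0.24 (SE 0.15, adjusted p = 0.627), with 39.3, 26.7 and 37.4 CPM in B+A0 and 39.9, 47.8 and 34.3 in B+A10. The 2 groups overlapped, and B+A0 replicate 2 was the lowest of all libraries.

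B+A10 against AOS0 compared both treatments together with neither. No subunit gene passed, against 0.957% of all genes. At an unadjusted p under 0.05 there were 5 of 77, all lower (Ndufa4, Ndufb3, Cox7b, Uqcrh and Atp5mpl), against 15.7% of all genes. DESeq2 called 1 of 77, Ndufa4, against 3.76% of all genes, and the groups did not overlap in 8 genes (10.4%), all lower, against 17.9% of all genes. The median was -0.04 against 0.00 for all genes, with 46 of 77 below 0. Without B+A10 replicate 3 it was -0.006, with 40 of 78 below 0. All 4 tuft cell markers (median -0.86) and all 8 T and NK cell markers (-0.54) lay below 0, none called, and their part was not tested.

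The calls of this comparison changed with B+A10 replicate 3. Without it, edgeR called 4 of 78 tested subunit genes, all lower, where 6.1% of all tested genes were called. They were Ndufa4 (-0.39, edgeR adjusted p = 0.0376), Cox7b (-0.44, 0.0404) and Uqcrb, a small subunit of complex III (-0.38, 0.0372). The last was Atp5f1, the b subunit of the ATP synthase stalk (-0.31, 0.0404). Replicate 3 had been set apart on the first principal component of these same genes. All 4 have negative weights on it (-0.15 to -0.22), so their calls without replicate 3 are not separate evidence. Cox7b gave 168.4 and 208.4 CPM in B+A10 replicates 1 and 2 but 249.7 in replicate 3, inside the AOS0 range of 247.4 to 270.5. Uqcrb gave 130.4 and 147.9 CPM and then 187.4 in replicate 3, above all AOS0 libraries (180.2 to 184.1). Ndufb3, a membrane-arm subunit of complex I, gave 59.8, 64.9 and 62.8 CPM in AOS0 and 45.4, 55.3 and 57.5 in B+A10 (log2 fold change -0.25 with SE 0.09 and edgeR adjusted p = 0.208 with all libraries).

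The interaction asked whether the change with busulfan differed between AOS 10 and AOS 0. No subunit gene passed, nor did any gene (0%), and DESeq2 called none of the 77, against 0.138% of all genes. The median was -0.12 against 0.01 for all genes, and 60 of the 77 lay below 0. Without B+A10 replicate 3, 69 of 78 lay below 0, with a median of -0.08. All 8 T and NK cell markers (median 1.69) and 9 of 10 enterocyte markers (0.205) lay above 0, none called, and their part was not tested. At an unadjusted p under 0.05 there were 2 of 77, both below 0, against 6.85% of all genes: Ndufa8 (-0.24, SE 0.09, adjusted p = 0.67) and Uqcr10 (-0.25, SE 0.10, adjusted p = 0.691). For Ndufa8 the group means were 121 ± 1.91 CPM in AOS0, 130 ± 2.73 in AOS10, 139 ± 6.76 in B+A0 and 125 ± 3.59 in B+A10 (SD, n = 3). The interaction uses the same B+A0 libraries as the comparisons above and adds no separate evidence for this gene. Intervals were wider here, and the farthest bound was 2.18-fold, for Atp5e.

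In the comparisons against AOS0, which share its libraries, differences among the subunit genes followed the GC content of their transcripts. Across the 77 genes, which share libraries and are not independent, Spearman's rho between GC content and log2 fold change was 0.47 for B+A0, 0.49 for AOS10 and 0.52 for B+A10, each against AOS0. Over all 12117 tested genes with a GC value it was 0.23, 0.40 and 0.19. For B+A10 against AOS10 and against B+A0 it was 0.13 and 0.06 among the subunit genes, and -0.13 and -0.07 over all genes. For the interaction it was -0.40 among the subunit genes and -0.34 over all genes. Ndufa4 (44.1% GC), Cox7b (42%) and Uqcrb (42.2%) lie at the lower end of the members' range of 38.4% to 60.4%.

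**Figure D5:**
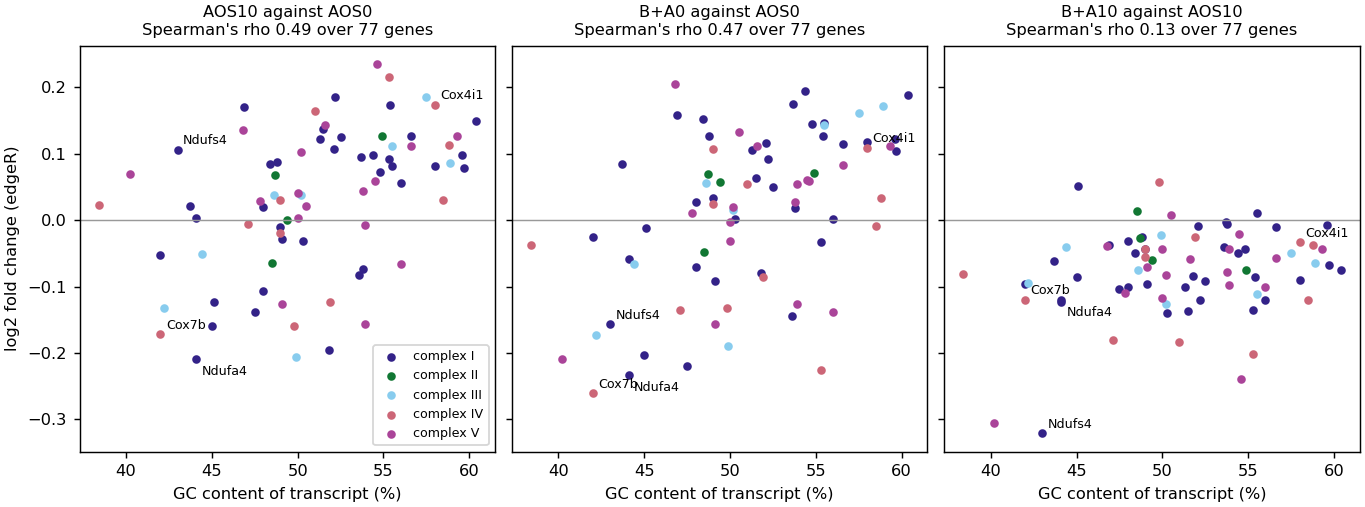
Log2 fold change against the GC content of the transcript for the 77 tested subunit genes in 3 comparisons, coloured by complex. Points rise with GC content in the comparisons of AOS10 and B+A0 with AOS0 (rho 0.49 and 0.47), and most lie below 0 at all GC contents in the comparison of B+A10 with AOS10 (rho 0.13).

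Split at their median GC content of 51%, the 38 lower-GC genes had a median change of -0.02 in B+A0 against AOS0 and the 39 higher-GC genes 0.08. In AOS10 against AOS0 the medians were 0.00 and 0.10. In B+A10 against AOS10, 34 of the 38 and 38 of the 39 lay below 0. Other genes split at the same value moved with the members from library to library. The difference between higher-GC and lower-GC genes was 0.20 among members and 0.25 among other genes in B+A10 replicate 1. It was -0.06 and -0.20 in B+A10 replicate 3. The part of GC content in the members' differences was not tested beyond the offsets described with Ndufa8.

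Genes that serve the respiratory chain without being members were counted from fixed lists. Of 50 tested assembly factors, 16 tricarboxylic acid cycle enzymes and 14 subunits and carriers outside the name rule, Cyc1 (cytochrome c1) and Ndufab1 (the acyl carrier protein of complex I) among them, none passed in any comparison. Their medians in B+A0 against AOS0 were 0.05, 0.06 and -0.02. In B+A10 against B+A0, 44 of 50, 9 of 16 and 11 of 14 lay below 0, with medians of -0.10, -0.02 and -0.04. The list of subunits encoded in mitochondrial DNA was not analysed here.

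Calls appeared in 3 lists, all in B+A0 against AOS0 and all higher, where 3.64% of all tested genes were called. Of 78 mitochondrial ribosomal proteins 2 rose: Mrps6 (0.60, SE 0.12, adjusted p = 0.0278) and Mrps5 (0.29, SE 0.07, adjusted p = 0.049), both of the small subunit. The coactivator Pprc1, 1 of 19 regulators of mitochondrial biogenesis, rose by 0.51 (SE 0.12, adjusted p = 0.0431), and Coq5, 1 of 13 genes of coenzyme Q synthesis and a methyltransferase, by 0.36 (SE 0.07, adjusted p = 0.0238). Coq5 gave 75.1, 80.9 and 76 CPM in AOS0 and 96.8, 102.4 and 98.3 in B+A0, and Mrps6 gave 21.2, 23.1 and 22 against 28.7, 32.1 and 39.9. Leaving out 1 of the 6 libraries kept the call of Mrps6 and Coq5 in 2 of 6 cases and that of Mrps5 and Pprc1 in 1 of 6. Over 12 other settings Coq5 was called in 11, Mrps6 in 10, Pprc1 in 6 and Mrps5 in 5.

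The mitochondrial ribosomal proteins had a median of 0.11 in B+A0 against AOS0, with 62 of 78 above 0. In B+A10 against B+A0, 76 of 78 lay below 0, with a median of -0.15 and none called. In B+A10 against AOS10 their median was 0.00, with 40 of 78 below 0, while 72 of 77 subunit genes lay below 0 there. The difference between the lists was not tested.

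The 81 genes lay on 19 chromosomes, with at most 7 on any and 3 on X (Ndufa1, Ndufb11 and Cox7b). Exons of another gene lie on the other strand in 26 of them, for example Haus1 at Atp5a1, Emc8 at Cox4i1 and Braf at Ndufb2. Whether the counting used strand is not stated, so reads of such pairs cannot be told apart. Counts that were not whole numbers occurred in 3 members (Ndufb4, Ndufa13 and Uqcrc2).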

How the data were processed

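RNA-seq of total RNA was deposited as 1 table of 16942 genes and 12 libraries. Reads had been placed on mm10, as the submitters' processing notes list it. Which aligner, counter, annotation or strand option was used is not given in the sources used here. The deposited expected counts (named read counts per the file headers, 8.9% to 9.33% of values not whole at a tolerance of 1e-06) were rounded. The other deposited values were taken as FPKM, although the file header names no unit: over 5071 genes with more than 500 counts, count over value followed the library total within 0.238%. The authors' group averages were not used.

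Genes were kept by filterByExpr (12329), scaled by TMM (factors 0.969 to 1.05) and fitted in 1 edgeR 4.0.16 quasi-likelihood model over 12 libraries (R 4.3.3). The 6 contrasts were adjusted by Benjamini-Hochberg over all kept genes. CPM are TMM-scaled. SE is the fold change on the log2 scale divided by the root of F. Members, lists and markers were chosen with earlier results of these data known. In each comparison the 2 members per complex with the smallest p were candidates for naming, and others were named for level, spread or role. Results of 1 member are not reported here by name. GC content and coordinates came from GENCODE and RefSeq for GRCm38, matched for all 81 members. No replicate pair agreed within counting noise (chi-square over degrees of freedom 8.28 to 35.4). The script was tested on simulated data. Alternatives were DESeq2 1.42.0, limma 3.58.1 on log2 FPKM, 3 other scalings, 2 other filters, a fit per comparison, a block for replicate number, each library left out and, chosen after seeing the data, GC trend offsets and complex I without Ndufa4. Figures used matplotlib 3.10.9.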

Additional observations from a re-analysis of the deposited data

How the results depend on the processing

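Over the counts of called members, their medians and the summed levels, 221 of 226 alternative values stayed close to the reported one (a count within 1.5 times, a median or sum within the spread between replicates). The pooled SD of the member mean within groups was 0.052, wider than medians such as 0.034 in B+A0 against AOS0. A median could thus turn sign and still be close, and counts of 0 mostly stayed at 0. The tally is therefore a weak measure of stability. For B+A0 against AOS0, the 0 members called by edgeR became 1 by DESeq2 (Ndufa8) and 2 with GC trend offsets (Ndufa8 among them). Under these offsets the median of members was 0.087, against 0.062 for all genes. For B+A10 against AOS0, DESeq2 called 1 (Ndufa4), and leaving out 1 library gave 0 to 4, the 4 being without B+A10 replicate 3. Leaving out 1 library, Sdhb ranged from -0.125 to 0.003 in B+A10 against AOS10, and Sdhc from -0.084 to 0.053 where B+A10 was set against B+A0. Both turned above 0 without B+A10 replicate 3, and neither was called. The cause was not tested. Leaving out 1 library moved the median of members between 0.001 and 0.07 (B+A0 against AOS0), 0.03 and 0.07 (AOS10 against AOS0), -0.08 and -0.04 (B+A10 against AOS10), -0.09 and -0.02 (B+A10 against B+A0), -0.06 and -0.006 (B+A10 against AOS0), and -0.14 and -0.07 (interaction). The first of these medians turned below 0 with library totals (-0.006), upper quartile scaling (-0.003) and limma on log2(FPKM + 1) or + 0.1 (-0.014).

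Replicate numbers are shared across groups, but same-numbered libraries did not deviate together (correlations of -0.162 to 0.173, with 1 of 18 pairs over 0.1). Whether they share more than a number was not tested further. With a replicate block 0 members were called in each comparison. Over all genes the count for B+A0 against AOS0 went from 449 to 193 and for B+A10 against AOS10 from 20 to 3. It rose from 0 to 15 for AOS10 against AOS0 and from 0 to 4 for B+A10 against B+A0. Of the 12 libraries 1 correlated best with one of its own number.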
